A study of Mus musculus with 12 samples.

Results

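Isolated osteoblasts on titanium with a nanotopography were compared with isolated osteoblasts on control titanium across all expressed genes, in 6 of the 12 RNA sequencing libraries of the series. All 12 libraries came from MC3T3-E1 subclone 14, a single clone of preosteoblasts from mouse calvaria. The isolated cells were grown for 7 days on titanium discs in osteogenic medium with ascorbic acid at 5 µg/mL and β-glycerophosphate at 7 mM, without osteoclasts, inserts or RANKL. The 3 control and 3 nanotopography libraries are biological triplicates per the labels, which do not say how the nanotopography was made. Members were chosen by their labels alone. The other 6 libraries, also from day 7, came from cells on the same 2 surfaces whose medium was shared for the last 2 days with RAW 264.7 osteoclasts, raised with 50 ng/mL RANKL on inserts with 0.4 µm pores. They entered the fit, which takes the spread from all 4 groups, and the last comparison.

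Osteoblasts build bone in stages: precursors divide, lay down a collagen matrix and then mineralise it. They sense the surface under them through integrins, which link the matrix to actin by way of talin and other adaptor proteins, and the tension of that actin network feeds back on growth and differentiation. Surfaces with relief at the nanometre scale are used on titanium implants because they alter adhesion and are reported to favour osteoblast differentiation. The title of the series names histone methylation, so the enzymes that add and remove it, with some subunits of their complexes, were also examined.

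Higher on nanotopography were 32 of 46 tested replication-dependent histone genes, 11 of 36 genes of the actin and contractile cytoskeleton, 8 of 30 S phase genes, the type VI collagen genes Col6a1 and Col6a2 and the chaperone gene Calr. Lower were 6 of 25 genes of the ATF4 stress response, the mineralisation gene Phex, osteopontin (Spp1), the Wnt genes Wif1 and Ccn4 and the peptide-processing gene Cpe. Of 13340 tested genes, 1347 (10.1%) passed an adjusted p of 0.05 in edgeR's quasi-likelihood test and are called here, 597 higher on nanotopography (4.48%) and 750 lower (5.62%). A change of at least 2-fold was called upward for 42 genes and downward for 90. Like most tested genes, the osteoblast genes Runx2, Sp7, Alpl, Col1a1, Ibsp and Bglap did not pass it.

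Values are CPM, a gene's share of the TMM-scaled library total written per 1000000 counts, listed in order of replicate 1, 2 and 3, and each log2 fold change is nanotopography against control titanium with its approximate standard error (n = 3 libraries per surface). The 3 control and 3 nanotopography libraries did not overlap in 29.9% of all tested genes, the share to set beside such statements below. Absence of overlap was also a condition for the genes ranked by size of change. Most list genes were named for a low p, which favours it as well. For genes so chosen it restates the choice and is no separate support. Total counts of the 6 libraries ran from 5866842 to 8386870. The cells carried the osteoblast markers fixed for the check: all 14 had counts, and their summed level was 84750 to 98090 CPM on control titanium and 86510 to 91440 CPM on nanotopography. The 20 macrophage and osteoclast markers summed to 193.1 to 202.2 and 182.9 to 203.2 CPM. Ptprc, Adgre1, Tyrobp, Atp6v0d2, Dcstamp and Calcr among them were at 0 in all 6 libraries. Most of the sum was Ctsk, with means of 171 CPM on control titanium and 163.6 CPM on nanotopography, and Mmp9, with 19.25 and 22.02 CPM. Csf1r had means of 2.24 and 2.03 CPM. The 12 chondrocyte markers summed to 2385 to 2739 and 2332 to 2579 CPM. Most of this was Col2a1, with means of 1203 and 1315 CPM, Col11a2 (903 and 655 CPM), Sox9 (252 and 288 CPM) and Sox6 (185 and 144 CPM). Acan, Col9a1, Col9a3 and Col10a1 had at most 7 counts over the libraries of either surface, and 6 of the 12 markers passed the low-count filter. The summed ranges of all 3 marker sets overlap between the surfaces.

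Library composition moved with the surface. Ribosomal RNA of mitochondria (mt-Rnr1, mt-Rnr2) took 9.80%, 8.01% and 6.70% of counts on control titanium and 4.54%, 6.35% and 4.52% on nanotopography. Gm26917 and Gm42418, predicted genes that collect reads of nuclear ribosomal RNA, took 2.77%, 3.21% and 5.46% against 8.33%, 3.66% and 6.83%. Log2 fold changes followed the GC content of the transcript: the median was -0.57 over the 999 genes under 40% GC, where 1 gene was called higher and 228 lower, and 0.28 over the 489 genes from 60% GC, where 52 were called higher and 0 lower. Across genes, which are not independent replicates, Spearman's rho was 0.62. Each fold change is therefore also given with the library-wise dependence on GC and on transcript length taken out, called GC-adjusted. Whether the trend is technical or part of the response was not tested, and the removal may take true changes with it. With it, 778 genes were called (5.83%), 528 higher (3.96%) and 250 lower (1.87%), so the share of calls that are higher went from 44.3% to 67.9%. In both fits and in the same direction, 487 genes were called, 300 higher (2.25%) and 187 lower (1.4%), and 0 were called in opposite directions.

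**Figure D1:**
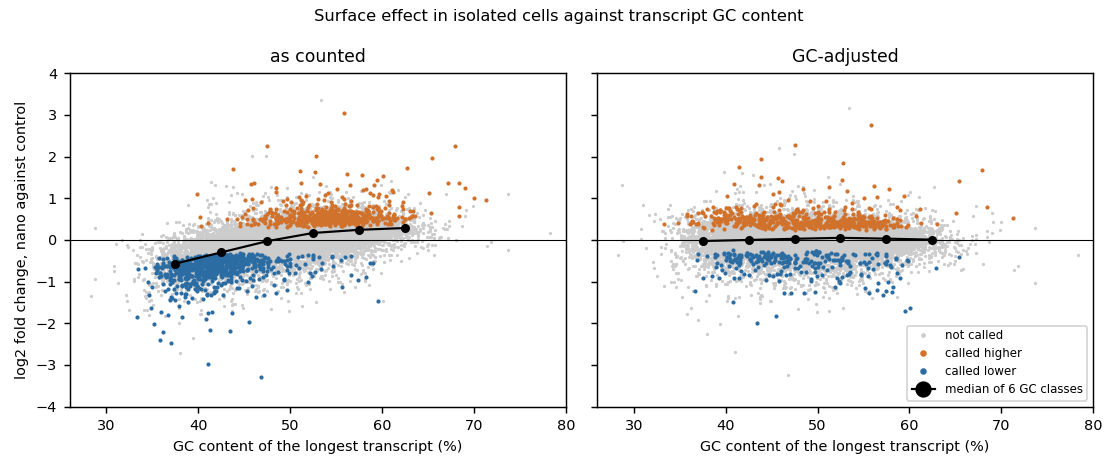
Log2 fold change of each tested gene (vertical axis) against the GC content of its longest transcript in percent (horizontal axis), as counted on the left and GC-adjusted on the right; orange and blue points were called higher and lower, and the black line joins the medians of 6 GC classes. The medians climb from -0.57 to 0.28 on the left and stay near 0 on the right.

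The number of calls depended on single libraries. Without control replicate 1 or nanotopography replicate 3, 2 and 3 genes were called, and 2507 and 2607 had an unadjusted p under 0.05. Hist1h2bm and Cpe were called both times, and the predicted gene Gm37194 the second time. Without control replicate 2 or nanotopography replicate 1 the counts were 46 and 67. Without control replicate 3 or nanotopography replicate 2 they were 2152 and 2912. These 2 libraries lie closest to the other surface in GC trend: genes over 60% GC minus genes under 40% GC gave -0.71, -0.44 and -0.11 (log2) on control titanium and 0.69, -0.09 and 0.60 on nanotopography. All 1347 genes kept their direction in each of the 6 fits. Since each fit keeps all other libraries from which the genes were called, this is no independent support. GC-adjusted counts with 1 library left out ran from 137 (without nanotopography replicate 3) to 1289 (without nanotopography replicate 2). A total of 88 genes, 56 higher and 32 lower, were called in both fits and in all 6 GC-adjusted fits with 1 library left out. Calls of that kind are described below as held without any 1 library, which refers to the GC-adjusted fits. Every other call was lost in at least 1 of these fits. As counted, only Hist1h2bm and Cpe kept the call in each fit with 1 library left out.

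**Figure D2:**
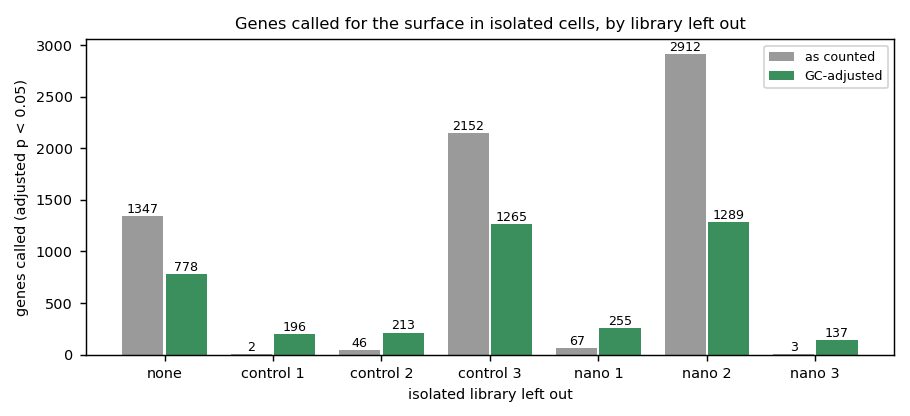
Number of genes called between the surfaces in isolated cells (vertical axis) with no library or 1 library left out (horizontal axis), as counted in grey and GC-adjusted in green. As counted the number runs from 2 to 2912, and GC-adjusted from 137 to 1289.

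Of 35 gene lists, 28 held at least 1 gene called in both fits. Replication-dependent histones stood highest by share, with 18 of 46 tested members called higher in both (39.1%, beside 2.25% of all tested genes), then the actin and contractile cytoskeleton (8 of 36, 22.2%), endoplasmic reticulum chaperones (5 of 23, 21.7%), S phase genes (5 of 30, 16.7%), cholesterol and fatty acid synthesis (5 of 32, 15.6%) and mitosis genes (4 of 29, 13.8%). None of these 6 lists had a member called lower in either fit. The ATF4 stress response had the highest share called lower in both, 5 of 25 (20%, beside 1.4%).

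**Figure D3:**
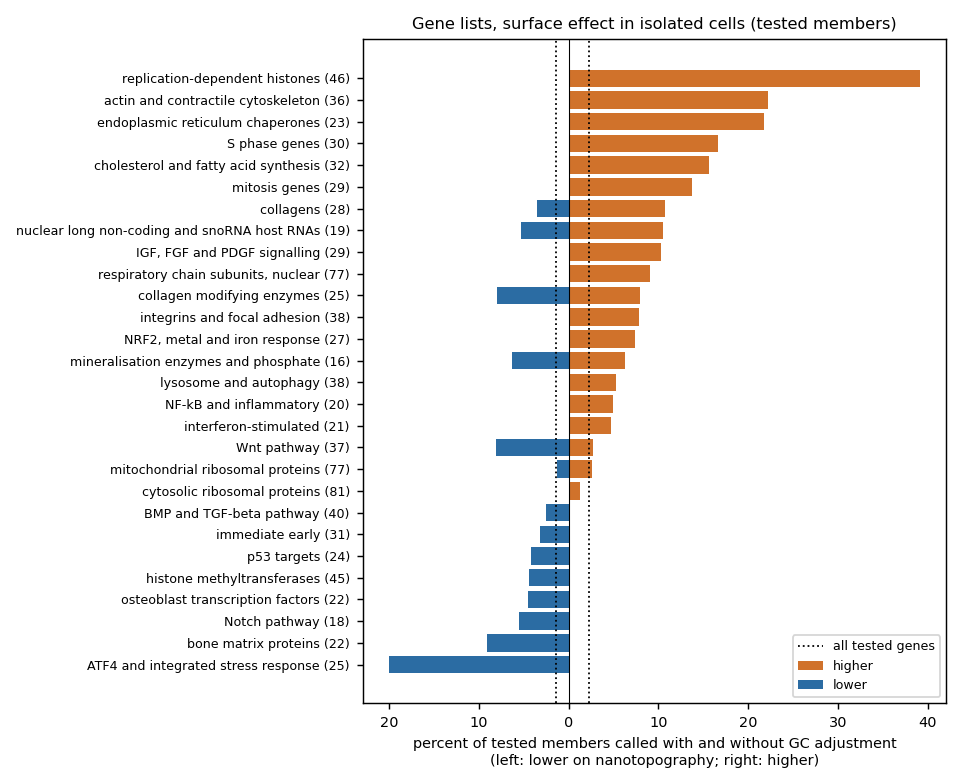
Percent of each list's tested members called both with and without GC adjustment, higher on nanotopography to the right (orange) and lower to the left (blue), with the number of tested members in brackets; dotted lines mark all tested genes (2.25% and 1.4%). The 28 lists with at least 1 such gene are shown; histones reach 39.1% on the right and the ATF4 list 20% on the left.

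Replication-dependent histone genes supply the core histones H2A, H2B, H3 and H4 and the linker histone H1 while DNA is copied, and their messages end in a stem-loop instead of a poly(A) tail. The labels name SMARTer library chemistry but not which kit, so how such messages were captured is not given in the sources used here. Hist1h2bm, an H2B gene at chr13:21722044-21722567, measured 8.35, 10.5 and 14.1 CPM on control titanium and 29.1, 27.4 and 39.6 CPM on nanotopography. Its groups did not overlap (log2 fold change 1.56 ± 0.19, adjusted p = 0.00317, GC-adjusted 1.23 with adjusted p = 0.000516). The linker histone gene Hist1h1c at chr13:23738808-23740367 measured 81.8, 91.9 and 108 CPM on control titanium and 251, 175 and 232 CPM on nanotopography (log2 fold change 1.23 ± 0.20, adjusted p = 0.00771, GC-adjusted 1.01 with adjusted p = 0.00122). Here too each nanotopography library lay above each control library. Hist1h2ab, an H2A gene, measured 16.2, 14.2 and 21.2 CPM on control titanium and 37.2, 31.1 and 44.2 CPM on nanotopography (log2 fold change 1.13 ± 0.17, adjusted p = 0.00771, GC-adjusted 0.64 with adjusted p = 0.0128). Of these 3, Hist1h2bm and Hist1h1c held without any 1 library.

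Members of each histone class were called higher. As counted, 32 of 46 tested members were called higher (69.6%, beside 4.48% of all tested genes) and 0 lower. The median log2 fold change of the list was 1.17 (all tested genes 0.01). GC-adjusted, 19 were called higher (41.3%, beside 3.96%) and 0 lower, with a median of 0.92 (all tested genes 0.02). By class, 4 of 4 tested H1 genes, 8 of 11 H2A, 7 of 11 H2B, 3 of 9 H3 and 10 of 11 H4 genes were called higher as counted, with medians of 1.17, 1.14, 1.28, 1.15 and 1.24. In 40 of the 46 (87%) the 3 control and 3 nanotopography libraries did not overlap, beside 29.9% of all tested genes. Hist3h2a, at -0.85 (GC-adjusted -0.73), was the lowest member and was not called. The list as a whole took 0.065%, 0.073% and 0.087% of counts on control titanium and 0.171%, 0.131% and 0.199% on nanotopography. The share taken by Gm26917 and Gm42418 was also higher on nanotopography on average (6.27 ± 2.38% against 3.81 ± 1.44%, SD, n = 3), though its groups overlap, and its part in the histone result was not tested. Genes within a histone class have nearly the same coding sequence, so the counting may move reads between them, and values of single members are uncertain on that account. The replication-independent linker histone gene H1fx was higher too, at 22.3, 24.2 and 29.3 CPM on control titanium and 48.4, 44.6 and 53.8 CPM on nanotopography (log2 fold change 0.96 ± 0.17, adjusted p = 0.00771, GC-adjusted 0.51 with adjusted p = 0.0263).

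The linker histone genes share a promoter element, the H1 box AAACACA, and some core histone genes carry an octamer, ATTTGCAT, which is bound by OCT factors. Promoters of the called histone genes were searched for both, on either strand, in the window from 250 bases before to 50 bases after the start of RefSeq (GRCm38.p6). The stretches below show the match in capitals with 40 bases on each side (up to the start in Hist1h2bm), 5′ to 3′ on the gene's strand, to show what the 4 H1 genes have in common and how Hist1h2bm differs from them. They lie at chr13:23738655-23738741 (plus strand), chr13:23622627-23622713 (minus), chr13:21780696-21780782 (minus), chr13:23554870-23554956 (plus) and chr13:21721979-21722043 (plus).
Hist1h1c: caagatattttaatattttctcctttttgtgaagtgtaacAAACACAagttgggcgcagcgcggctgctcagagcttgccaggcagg
Hist1h1e: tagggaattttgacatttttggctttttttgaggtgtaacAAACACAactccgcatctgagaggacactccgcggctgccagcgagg
Hist1h1b: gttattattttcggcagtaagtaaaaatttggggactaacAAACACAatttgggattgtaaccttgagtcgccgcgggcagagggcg
Hist1h1d: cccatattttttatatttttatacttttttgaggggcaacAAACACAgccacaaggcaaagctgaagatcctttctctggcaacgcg
Hist1h2bm: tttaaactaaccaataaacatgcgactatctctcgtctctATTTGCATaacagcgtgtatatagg

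All 4 called H1 genes held AAACACA, beginning 112, 115, 117 and 122 bases before the start in the order printed, and 2 of the 26 called core histone genes with a promoter entry held it (7.69%). Over all 32851 promoters the share was 7.18%. ATTTGCAT was in 8 of the 26 core histone genes (30.8%), in 0 of the 4 H1 genes and in 1.74% of all promoters; in Hist1h2bm it begins 25 bases before the start. Since linker histone genes are known to share the H1 box, finding it in them tells nothing about the surface. Core histone genes that were not called were not searched, so the share with the octamer cannot be tied to the calls. The H1 genes measured log2 fold changes of 1.23 for Hist1h1c, 1.36 for Hist1h1e, 1.02 for Hist1h1b and 1.11 for Hist1h1d. Of the 11 H4 genes 10 were called higher with a class median of 1.24, next to 1.17 for the H1 genes.

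Some DNA replication and mitosis genes were higher on nanotopography, and 0 were called lower. Mcm2, Mcm3, Mcm6 and Mcm7 encode subunits of the helicase that opens DNA for copying, and Mcm10 and Cdc6 help to start it. Mcm6 measured 40.6, 39.8 and 48.0 CPM on control titanium and 67.9, 53.3 and 60.9 CPM on nanotopography (log2 fold change 0.51 ± 0.13, adjusted p = 0.0243, GC-adjusted 0.58 with adjusted p = 0.00784). Mcm3 measured 29.1, 30.6 and 35.3 CPM on control titanium and 46.0, 43.5 and 53.4 CPM on nanotopography (log2 fold change 0.59 ± 0.13, adjusted p = 0.0176, GC-adjusted 0.47 with adjusted p = 0.0113), and Mcm10 rose by 0.59 ± 0.14 (GC-adjusted 0.61). For all 3 the groups did not overlap. In the S phase list 8 of 30 tested genes were called higher (26.7%, beside 4.48% of all tested genes) and 0 lower, with a median of 0.40. GC-adjusted, 6 (20%, beside 3.96%) and 0 were called, with a median of 0.34. In the mitosis list 5 of 29 were called higher (17.2%) and 0 lower, with a median of 0.17. GC-adjusted, 5 (17.2%) and 0 were called, with a median of 0.25. Cdca8, a subunit of the chromosomal passenger complex, measured 13.8, 15.6 and 15.7 CPM on control titanium and 23.4, 26.3 and 21.8 CPM on nanotopography (log2 fold change 0.67 ± 0.14, adjusted p = 0.0175, GC-adjusted 0.69 with adjusted p = 0.00556). The kinesin gene Kif20a was at 0.52 (GC-adjusted 0.52) and the centrosome kinase gene Nek2 at 0.70 (GC-adjusted 0.63), both called in both fits. Cdca8 held without any 1 library. Among p53 targets 0 of 24 were called higher and 4 lower (16.7%, beside 5.62% of all tested genes), of which Mdm2, the ubiquitin ligase that degrades p53, was called in both fits (4.17%, beside 1.4%) at -0.49 (GC-adjusted -0.40).

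Cytoskeletal genes were higher on nanotopography in 11 of 36 cases and lower in 0. Tpm2, a tropomyosin that lies along actin filaments, measured 88.5, 97.6 and 87.2 CPM on control titanium and 143, 159.9 and 153 CPM on nanotopography. The groups did not overlap (log2 fold change 0.74 ± 0.14, adjusted p = 0.00936, GC-adjusted 0.55 with adjusted p = 0.00511). Actg2, a smooth muscle actin, measured 74.5, 86.2 and 108 CPM on control titanium and 166, 119.9 and 158 CPM on nanotopography (log2 fold change 0.72 ± 0.16, adjusted p = 0.0180, GC-adjusted 0.56 with adjusted p = 0.00927). Lmnb1, which encodes lamin B1 of the nuclear envelope and was kept in this list, rose by 0.53 ± 0.11 (GC-adjusted 0.39). Of 36 tested members, 11 were called higher (30.6%, beside 4.48% of all tested genes) and 0 lower (median 0.34). GC-adjusted, 9 (25%, beside 3.96%) and 0 were called (median 0.21). The other members called in both fits were Rhoa, the GTPase that switches contraction on, at 0.50 (GC-adjusted 0.80), the formin gene Diaph1 at 0.47 (GC-adjusted 0.40), the non-muscle myosins Myh9 at 0.53 (GC-adjusted 0.34) and Myh10 at 0.42 (GC-adjusted 0.36), and Tpm1 at 0.32 (GC-adjusted 0.26). Fold changes were above 0 for 31 of the 36 in either fit. Tpm2 held without any 1 library.

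Of 38 tested genes of integrins and focal adhesions, Cavin1, Tln1 and Tln2 were called higher in both fits (7.89%, beside 2.25% of all tested genes). Cavin1, a coat protein of caveolae, the membrane pits that flatten under stretch, measured 789.6, 871 and 944 CPM on control titanium and 1421, 1234 and 1485 CPM on nanotopography (log2 fold change 0.67 ± 0.12, adjusted p = 0.00771, GC-adjusted 0.47 with adjusted p = 0.00223). Tln1, the talin that couples integrins to actin, measured 416, 429 and 442 CPM on control titanium and 664, 566 and 648 CPM on nanotopography (log2 fold change 0.55 ± 0.12, adjusted p = 0.0176, GC-adjusted 0.35 with adjusted p = 0.00843). Both sets of libraries were apart. Its paralog Tln2 rose by 0.54 ± 0.12 (GC-adjusted 0.46). In this list 4 were called higher (10.5%) and 1 lower (2.63%) as counted, beside 4.48% and 5.62% of all tested genes. GC-adjusted, 3 were called higher and 0 lower: Cavin1, Tln1 and Tln2. The integrin subunit genes that were called as counted did not keep the call: Itgb5 went from 0.40 to 0.20 and Itgb1 from -0.35 to -0.17. Lgals1, which encodes the glycan-binding protein galectin-1, measured 801, 888 and 955 CPM on control titanium and 1547, 1238 and 1858 CPM on nanotopography (log2 fold change 0.81 ± 0.14, adjusted p = 0.00771, GC-adjusted 0.57 with adjusted p = 0.00272). S100a11, a calcium-binding protein gene, measured 101, 131 and 128 CPM on control titanium and 232, 164 and 251 CPM on nanotopography (log2 fold change 0.84 ± 0.15, adjusted p = 0.00771, GC-adjusted 0.77 with adjusted p = 0.00837). Cd44, the receptor for the matrix glycan hyaluronan and a member of the inflammatory list, measured 283, 301 and 320.3 CPM on control titanium and 373, 382 and 378 CPM on nanotopography (log2 fold change 0.33 ± 0.09, adjusted p = 0.0366, GC-adjusted 0.56 with adjusted p = 0.000885). Cavin1, Tln1, Lgals1, S100a11 and Cd44 held without any 1 library. In the YAP and TAZ list, the pathway through which cells read stiffness, 0 of 27 were called higher and 3 lower (11.1%, beside 5.62%). These were Mob1b, Mob1a and Stk3, kinases and cofactors that restrain YAP. GC-adjusted, 0 were called higher and 1 lower (3.7%, beside 1.87%): Ccn1, a matricellular target of YAP, at -0.26 (GC-adjusted -0.41). The first 3 went from -0.78, -0.52 and -0.57 to -0.23, -0.26 and -0.05 and were no longer called.

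Of 22 tested osteoblast transcription factors, 2 were called as counted (9.09%, beside 10.1% of all tested genes). Runx2, the transcription factor that commits cells to the lineage, measured 389, 381 and 313 CPM on control titanium and 308, 355 and 345 CPM on nanotopography (log2 fold change -0.10 ± 0.12, adjusted p = 0.585, GC-adjusted -0.13 with adjusted p = 0.482). Its groups overlap. Sp7, which encodes osterix, was at 0.12 ± 0.10 with adjusted p = 0.434, and GC-adjusted at -0.05. Col1a1, the main collagen of bone, was at 0.02 ± 0.11 with adjusted p = 0.932, and GC-adjusted at -0.19. The sign of both turns with the adjustment. Osteocalcin is encoded by Bglap and its near-identical copy Bglap2, whose reads may be divided by the counting. They measured -0.36 ± 0.17 and -0.41 ± 0.16 (adjusted p = 0.174 and 0.108). Of the transcription factors 0 were called higher and 2 lower in either fit, among them Atf4 in both fits and Prrx1 as counted. A test that was not passed does not show that the surfaces are alike.

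Among genes of mineralisation, Phex fell. Phex encodes an endopeptidase of osteoblasts and osteocytes whose loss causes rickets with low phosphate. At chrX:157162075-157415312, it measured 14.5, 16.0 and 12.3 CPM on control titanium and 4.55, 8.83 and 5.27 CPM on nanotopography, with no overlap (log2 fold change -1.19 ± 0.23, adjusted p = 0.0117, GC-adjusted -0.72 with adjusted p = 0.0242). Its transcript has 39.6% GC, in the class that was lower as counted. The call of Phex did not hold without any 1 library, with a GC-adjusted p up to 0.127. Alpl, the phosphatase that frees phosphate for mineral, measured 124, 141 and 150.4 CPM on control titanium and 140.5, 99.5 and 133 CPM on nanotopography. The groups overlap, and Alpl was called only after GC adjustment (log2 fold change -0.16 ± 0.13, adjusted p = 0.438, GC-adjusted -0.37 with adjusted p = 0.0120). Phospho1, which produces phosphate inside matrix vesicles, measured 139.6, 158 and 135 CPM on control titanium and 186, 177 and 189 CPM on nanotopography and did not pass either test (log2 fold change 0.35 ± 0.14, adjusted p = 0.106, GC-adjusted 0.07 with adjusted p = 0.727). Smpd3, a sphingomyelinase needed for mineralisation, was at 0.10 ± 0.10 (adjusted p = 0.503), and GC-adjusted at -0.06. Anxa6, an annexin of matrix vesicles, measured 202, 236 and 278 CPM on control titanium and 348, 272 and 369 CPM on nanotopography (log2 fold change 0.47 ± 0.14, adjusted p = 0.0436, GC-adjusted 0.30 with adjusted p = 0.0479). Control replicate 3 and nanotopography replicate 2 overlap in it. Of 16 tested members, 1 was called higher (6.25%) and 1 lower (6.25%) as counted, beside 4.48% and 5.62% of all tested genes. GC-adjusted, 1 (6.25%) and 2 (12.5%) were called, beside 3.96% and 1.87%.

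Of 22 tested bone matrix genes, 1 was called higher (4.55%) and 5 lower (22.7%), beside 4.48% and 5.62% of all tested genes. Spp1, which encodes the mineral-binding protein osteopontin, measured 238, 194 and 189.6 CPM on control titanium and 118, 149 and 133 CPM on nanotopography. All nanotopography libraries lay below all control libraries (log2 fold change -0.64 ± 0.12, adjusted p = 0.0116, GC-adjusted -0.40 with adjusted p = 0.0105). Thbs1, which encodes the matricellular protein thrombospondin-1, measured 953, 959 and 882 CPM on control titanium and 749.5, 711 and 748 CPM on nanotopography (log2 fold change -0.34 ± 0.10, adjusted p = 0.0355, GC-adjusted -0.35 with adjusted p = 0.00783). Ibsp, bone sialoprotein, and Dmp1, a phosphoprotein of osteocytes, had overlapping groups and values of -0.20 ± 0.14 and -0.35 ± 0.26 (adjusted p = 0.356 and 0.371). Decorin (Dcn), a collagen-binding proteoglycan with 37.4% GC, fell by 0.38 as counted and was at 0.22 after GC adjustment, without a call. GC-adjusted, 1 was called higher (4.55%, beside 3.96%) and 2 lower (9.09%, beside 1.87%). The list median was -0.23 as counted and -0.09 GC-adjusted. Thbs1 held without any 1 library, but Spp1 did not, with a GC-adjusted p up to 0.0762.

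Col6a1 and Col6a2, which encode chains of the type VI collagen that forms beaded filaments around cells, were higher on nanotopography. Col6a2 measured 1062, 1049 and 1096 CPM on control titanium and 1580, 1478 and 1593 CPM on nanotopography (log2 fold change 0.54 ± 0.12, adjusted p = 0.0185, GC-adjusted 0.38 with adjusted p = 0.00500). Col6a1 measured 1421, 1412 and 1481 CPM on control titanium and 2058, 1869 and 2110 CPM on nanotopography (log2 fold change 0.48 ± 0.11, adjusted p = 0.0209, GC-adjusted 0.30 with adjusted p = 0.0118). The libraries of the surfaces were apart in both. Col3a1, a fibrillar collagen, was called higher in both fits at 0.37 (GC-adjusted 0.28). Col24a1, a minor fibrillar collagen of bone, measured 119, 115 and 92.9 CPM on control titanium and 68.2, 70.3 and 67.2 CPM on nanotopography and fell (log2 fold change -0.67 ± 0.12, adjusted p = 0.00771, GC-adjusted -0.71 with adjusted p = 0.000663). Of 28 tested collagens, 5 were called higher (17.9%) and 2 lower (7.14%), beside 4.48% and 5.62% of all tested genes. GC-adjusted, 4 (14.3%) and 4 (14.3%) were called, beside 3.96% and 1.87%. Among collagen-modifying enzymes, Plod2, the lysyl hydroxylase of cross-links, measured 315, 277 and 289 CPM on control titanium and 167, 216 and 167 CPM on nanotopography (log2 fold change -0.68 ± 0.13, adjusted p = 0.0123, GC-adjusted -0.41 with adjusted p = 0.00508). P4hb, a subunit of prolyl 4-hydroxylase, and Ppib, a prolyl isomerase that helps collagen fold, rose by 0.51 ± 0.13 and 0.46 ± 0.12 (GC-adjusted 0.35 and 0.40). In all, 2 of 25 were called higher (8%) and 2 lower (8%) in either fit. Of all tested genes these shares were 4.48% and 5.62% as counted, and 3.96% and 1.87% GC-adjusted. Col6a2, Col24a1 and Plod2 held without any 1 library, Plod2 with an adjusted p up to 0.0499. Col6a1 did not, with a GC-adjusted p up to 0.0760.

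Of 37 tested Wnt genes, 2 were called higher (5.41%) and 3 lower (8.11%), beside 4.48% and 5.62% of all tested genes. GC-adjusted, 1 (2.7%) and 4 (10.8%) were called, beside 3.96% and 1.87%. Wif1, a secreted inhibitor that binds Wnt proteins, measured 78.4, 79.9 and 75.4 CPM on control titanium and 49.2, 44.6 and 48.1 CPM on nanotopography (log2 fold change -0.72 ± 0.13, adjusted p = 0.00933, GC-adjusted -0.77 with adjusted p = 0.00113). Ccn4, a matricellular protein induced by Wnt and also called Wisp1, measured 221, 228 and 196 CPM on control titanium and 143, 155 and 135 CPM on nanotopography (log2 fold change -0.58 ± 0.10, adjusted p = 0.00814, GC-adjusted -0.44 with adjusted p = 0.00285). Sfrp2, a secreted Frizzled-related protein, measured 86.8, 73.6 and 84.3 CPM on control titanium and 116, 115 and 126 CPM on nanotopography and rose (log2 fold change 0.55 ± 0.10, adjusted p = 0.00771, GC-adjusted 0.40 with adjusted p = 0.0116). None of the 3 had overlapping groups. Wnt10b, a ligand that favours bone formation, was called lower in both fits at -0.36 (GC-adjusted -0.48). In the BMP and TGF-beta list 0 of 40 were called higher and 7 lower as counted (17.5%, beside 5.62%), and GC-adjusted 0 and 1 (2.5%, beside 1.87%). The one call common to both fits was the ligand gene Bmp4, at -0.46 (GC-adjusted -0.59). The receptor genes Bmpr1a and Tgfbr1 went from -0.57 and -0.57 to -0.17 and -0.14, with 41.3% and 41.0% GC, and lost their calls. Of 18 tested Notch genes 0 were called higher and 3 lower (16.7%, beside 5.62%). GC-adjusted, 0 were called higher and 1 lower (5.56%, beside 1.87%): Dtx3, at -0.54 (GC-adjusted -0.79). Wif1 and Ccn4 held without any 1 library, but Sfrp2 did not, with a GC-adjusted p up to 0.0860.

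The list of IGF, FGF and PDGF signalling included the imprinted non-coding RNA H19, which measured 182, 213 and 261 CPM on control titanium and 345, 371 and 354 CPM on nanotopography (log2 fold change 0.71 ± 0.12, adjusted p = 0.00771, GC-adjusted 0.52 with adjusted p = 0.00285). It also held Igfbp5, an IGF-binding protein of bone, which measured 216, 206 and 192 CPM on control titanium and 259.7, 305 and 279.7 CPM on nanotopography (log2 fold change 0.46 ± 0.10, adjusted p = 0.0193, GC-adjusted 0.43 with adjusted p = 0.00380). Each was higher in all 3 nanotopography libraries than in any control library, and both held without any 1 library. In this list 4 of 29 were called higher (13.8%) and 1 lower (3.45%), beside 4.48% and 5.62% of all tested genes. GC-adjusted, 3 (10.3%) and 1 (3.45%) were called, beside 3.96% and 1.87%. Of 16 tested genes in the list of osteoclast-directed and paracrine factors, 0 were called higher and 1 lower (6.25%, beside 5.62% of all tested genes). The lower gene was the growth factor Fgf7, at -0.65 (GC-adjusted -0.09). GC-adjusted, none were called. Tnfrsf11b, the decoy receptor osteoprotegerin, was at -0.28 ± 0.11 (adjusted p = 0.103), and GC-adjusted at -0.01. Tnfsf11, which encodes RANKL, had 0 counts in all 6 libraries, which allows up to 0.137 CPM on control titanium and 0.159 CPM on nanotopography (3 counts over each group, counting error only).

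**Figure D4:**
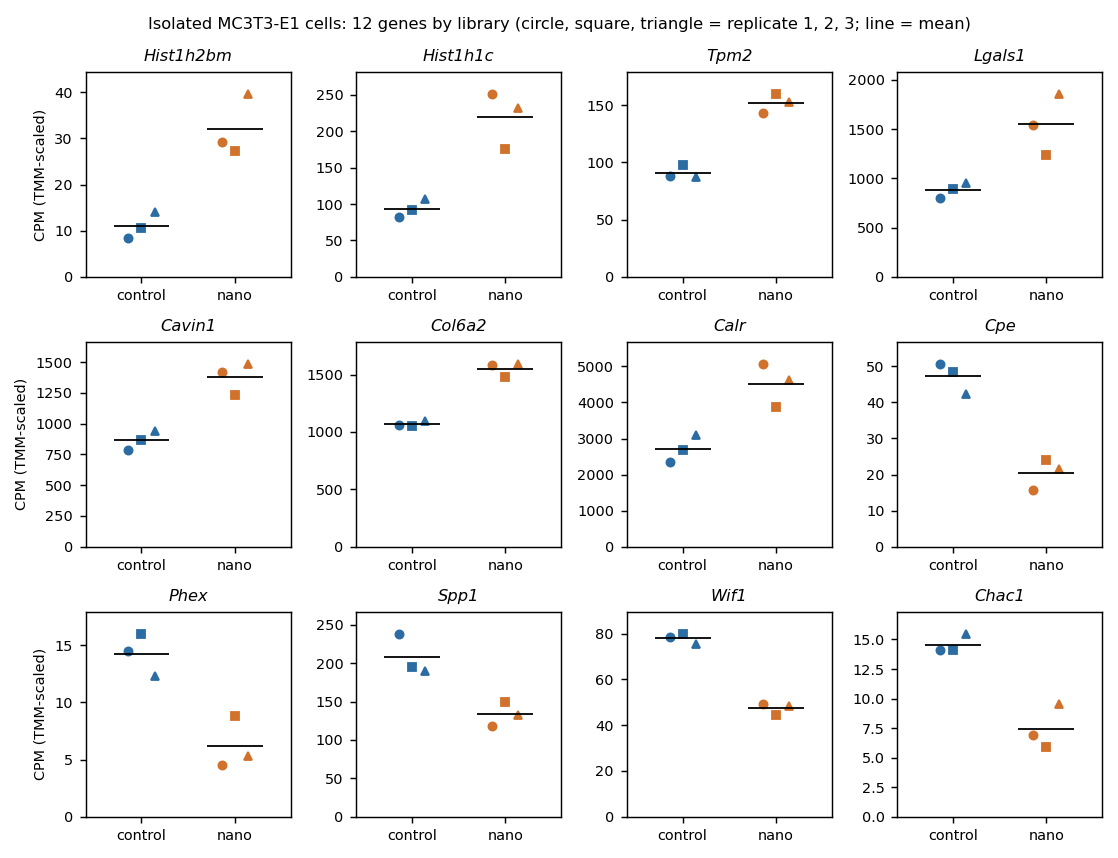
CPM of 12 genes (vertical axes, from 0) in the isolated libraries on control titanium (blue) and nanotopography (orange); symbols are replicates 1 to 3 and lines are means. In none of the 12 do the surfaces overlap, beside 29.9% of all tested genes without overlap. All 12 are called genes, and that choice favours the absence of overlap. Hist1h2bm to Calr are higher on nanotopography, and Cpe to Chac1 lower.

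Several genes of the ATF4 stress response were lower on nanotopography. ATF4 is a transcription factor whose translation rises when amino acids are short or proteins misfold, and it is also needed for osteoblasts to mature. Atf4 itself measured 219, 215 and 203 CPM on control titanium and 143, 154 and 161 CPM on nanotopography, with the groups apart (log2 fold change -0.48 ± 0.11, adjusted p = 0.0226, GC-adjusted -0.68 with adjusted p = 0.0120). Chac1, which degrades glutathione and is an ATF4 target at chr2:119351229-119354381, measured 14.1, 14.1 and 15.5 CPM on control titanium and 6.91, 5.88 and 9.53 CPM on nanotopography (log2 fold change -0.97 ± 0.20, adjusted p = 0.0141, GC-adjusted -1.23 with adjusted p = 0.000885). Trib3, a pseudokinase that feeds back on ATF4, measured 15.3, 13.1 and 17.8 CPM on control titanium and 11.3, 6.77 and 6.81 CPM on nanotopography (log2 fold change -0.89 ± 0.19, adjusted p = 0.0175, GC-adjusted -1.13 with adjusted p = 0.000885). Again no library of one surface reached the other. Vldlr, a lipoprotein receptor, fell by 0.58 (GC-adjusted -0.29), and the stress protein gene Nupr1 was called lower in both fits at -0.80 (GC-adjusted -0.86). Of 25 tested members 0 were called higher and 6 lower (24%, beside 5.62% of all tested genes). GC-adjusted, 0 were called higher and 5 lower (20%, beside 1.87%). The list median was near 0 as counted (-0.0030) and -0.21 GC-adjusted, so the calls are a minority of the list. Chac1 and Trib3 held without any 1 library. Their GC contents of 57.4% and 58.2% lie in classes whose medians were above 0 as counted.

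ATF4 binds with C/EBP proteins to an element of the form TGATGNAA. Of the 5 genes called lower in both fits, 4 held it on either strand in the same RefSeq window (Chac1, Nupr1, Trib3 and Vldlr, not Atf4), beside 3.97% of all promoters; Vldlr has more than 1 window. Stretches of Chac1, Nupr1 and Vldlr are shown to compare the matches, in capitals and as the reverse complement, since each lies on the opposite strand, with 40 bases on each side. They are chr2:119351009-119351096 (plus strand), chr7:126625533-126625620 (minus) and chr19:27216780-27216867 (plus), and the matches begin 193, 110 and 200 bases before the start. The Trib3 match lies inside the transcript, at bases 15 to 22.
Chac1: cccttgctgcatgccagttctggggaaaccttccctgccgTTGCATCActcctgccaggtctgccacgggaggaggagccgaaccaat
Nupr1: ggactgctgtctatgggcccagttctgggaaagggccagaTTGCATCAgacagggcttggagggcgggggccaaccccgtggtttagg
Vldlr: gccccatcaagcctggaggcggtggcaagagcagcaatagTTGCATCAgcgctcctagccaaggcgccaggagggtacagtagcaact

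The capitals are the same in the 3 genes, but the element searched for leaves a single letter free, and the genes were taken from those called lower. These genes also come from a list of ATF4 response genes, so finding an ATF4 element in them tells nothing about the surface. List members that were not called were not searched, so the share with the element cannot be tied to the calls. The share over all promoters counts windows (32851 for 27025 genes), whereas the called genes were counted as genes. A match is a description and not a site of binding.

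Several chaperones of the endoplasmic reticulum were higher. Calr, which encodes the calcium-binding chaperone calreticulin, measured 2358, 2670 and 3101 CPM on control titanium and 5070, 3874 and 4614 CPM on nanotopography (log2 fold change 0.74 ± 0.13, adjusted p = 0.00771, GC-adjusted 0.68 with adjusted p = 0.000885). Its groups were apart and it held without any 1 library. Of 23 tested members 5 were called higher (21.7%, beside 4.48% of all tested genes) and 0 lower, and GC-adjusted 6 (26.1%, beside 3.96%) and 0. P4hb and Ppib, described with the collagen enzymes, are 2 of them, and Hyou1 and Pdia4, a chaperone and a disulphide isomerase, were at 0.47 (GC-adjusted 0.37) and 0.31 (GC-adjusted 0.34). The list median was 0.17 as counted and 0.13 GC-adjusted.

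Some nuclear genes of the respiratory chain were higher, but most of that list, like most mitochondrially encoded RNAs, gave no call. Ndufa9, a subunit of complex I, measured 48.8, 49.8 and 60.6 CPM on control titanium and 89.0, 75.3 and 85.6 CPM on nanotopography (log2 fold change 0.65 ± 0.11, adjusted p = 0.00771, GC-adjusted 0.67 with adjusted p = 0.00101). Atp5a1, the alpha subunit of ATP synthase, measured 386, 444 and 512 CPM on control titanium and 702, 570 and 727 CPM on nanotopography (log2 fold change 0.58 ± 0.13, adjusted p = 0.0206, GC-adjusted 0.40 with adjusted p = 0.00843). Neither overlapped between surfaces. Of 77 tested members 11 were called higher (14.3%, beside 4.48% of all tested genes) and 0 lower (median 0.25). GC-adjusted, 9 (11.7%, beside 3.96%) and 0 were called (median 0.19). Of 15 tested mitochondrially encoded RNAs, 0 were called higher and 1 lower as counted (6.67%, beside 5.62% of all tested genes). This was mt-Rnr2, with 35.4% GC, at -0.80, and after GC adjustment it was at -0.11 without a call. After the adjustment only mt-Rnr1 was called, higher at 0.56 (-0.04 as counted; 6.67% of the list, beside 3.96%), and the list median went from -0.09 to 0.33. Of 77 tested mitochondrial ribosomal proteins 7 were called higher (9.09%) and 2 lower (2.6%), beside 4.48% and 5.62% of all tested genes. GC-adjusted, 7 (9.09%) and 1 (1.3%) were called, beside 3.96% and 1.87%. Mrps5 was called in both at 0.47 (GC-adjusted 0.56) and Mrpl28 at 0.81 (GC-adjusted 0.49). Of 81 tested cytosolic ribosomal proteins 8 were called higher (9.88%) and 2 lower (2.47%), beside 4.48% and 5.62% of all tested genes. GC-adjusted, only 2 (2.47%) and 0 were called, beside 3.96% and 1.87%. Rpl26 and Rpl29 went from 0.45 and 0.58 to 0.17 and 0.22. Ndufa9 and Mrps5 held without any 1 library.

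A few lipid synthesis genes rose on nanotopography. Fdft1, which encodes squalene synthase of the cholesterol pathway, measured 90.4, 99.6 and 114 CPM on control titanium and 152, 119 and 151 CPM on nanotopography (log2 fold change 0.47 ± 0.13, adjusted p = 0.0301, GC-adjusted 0.37 with adjusted p = 0.0227), with no overlap between the surfaces. Fasn, the fatty acid synthase, rose by 0.55 (GC-adjusted 0.35). Of 32 tested members 5 were called higher (15.6%, beside 4.48% of all tested genes) and 0 lower. GC-adjusted, 6 (18.8%, beside 3.96%) and 0 were called (medians 0.22 as counted and 0.18 GC-adjusted). Among genes of the NRF2 and iron response, Fth1, the ferritin heavy chain that stores iron, measured 304, 324 and 387 CPM on control titanium and 520.2, 466 and 542 CPM on nanotopography (log2 fold change 0.59 ± 0.12, adjusted p = 0.0156, GC-adjusted 0.54 with adjusted p = 0.00272). It held without any 1 library. In its list 4 of 27 were called higher (14.8%) and 1 lower (3.7%), beside 4.48% and 5.62% of all tested genes. GC-adjusted, 3 (11.1%) and 1 (3.7%) were called, beside 3.96% and 1.87%. Among 38 lysosome and autophagy genes, Grn, which encodes progranulin, was called higher in both fits at 0.55 (GC-adjusted 0.35). In all, 3 of the 38 were called higher (7.89%) and 1 lower (2.63%), beside 4.48% and 5.62% of all tested genes. GC-adjusted, 2 (5.26%) and 0 were called, beside 3.96% and 1.87%.

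Of 45 tested genes in the histone methyltransferase list 3 were called as counted (6.67%), beside 10.1% of all tested genes. Of 25 demethylase genes 3 were called (12%). The methyltransferase list holds subunits of enzyme complexes, such as Suz12, Eed and Wdr5, as well as enzymes. Suz12, a core subunit of the Polycomb complex PRC2 that methylates lysine 27 of histone H3, measured 131, 95.5 and 86.1 CPM on control titanium and 48.4, 71.7 and 44.8 CPM on nanotopography, with the groups apart (log2 fold change -0.92 ± 0.19, adjusted p = 0.0156, GC-adjusted -0.57 with adjusted p = 0.00743). Kmt2e, a member of the lysine methyltransferase family, measured 242, 203 and 178 CPM on control titanium and 127, 172 and 132 CPM on nanotopography (log2 fold change -0.53 ± 0.15, adjusted p = 0.0341, GC-adjusted -0.36 with adjusted p = 0.0325). Of the methyltransferase list 1 gene was called higher and 2 lower in each fit. The lower genes were Suz12 and Kmt2e each time, and the higher gene was Smyd5 as counted, at 0.47 (GC-adjusted 0.38), and Nsd2 after GC adjustment, at 0.13 (GC-adjusted 0.53). This is 2 of 45 (4.44%) called lower in both fits, beside 1.4% of all tested genes. Ezh2, the catalytic subunit of PRC2, measured 80.5, 67.3 and 65.3 CPM on control titanium and 71.6, 78.0 and 68.4 CPM on nanotopography, with overlap (log2 fold change 0.03 ± 0.12, adjusted p = 0.877, GC-adjusted 0.23 with adjusted p = 0.151). Setd7, a lysine methyltransferase, was at -0.13 ± 0.10 (adjusted p = 0.399). Of the demethylase genes 0 were called higher and 3 lower as counted, and 0 in either direction after GC adjustment. Kdm7a, at -0.62 (GC-adjusted -0.14), and Kdm3a, at -0.34 (GC-adjusted -0.17), lost their calls. Kdm6b, which removes methylation of lysine 27, was at -0.01 ± 0.11 (adjusted p = 0.947), and Kdm1a at 0.16 ± 0.12 (adjusted p = 0.390). Neither the call of Suz12 nor that of Kmt2e held without any 1 library: the GC-adjusted p rose to 0.0690 and 0.196.

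Protein-coding genes outside these lists are named here from those with a mean of at least 5 CPM, no overlap between the surfaces and a call in both fits, by the size of the change. Cpe encodes carboxypeptidase E, which trims peptide hormones in secretory granules, and lies at chr8:64592542-64693054. It measured 50.6, 48.4 and 42.4 CPM on control titanium and 15.7, 24.1 and 21.6 CPM on nanotopography (log2 fold change -1.20 ± 0.16, adjusted p = 0.00470, GC-adjusted -1.25 with adjusted p = 0.000516). Snrpc, a protein of the U1 splicing particle, measured 22.8, 20.5 and 25.4 CPM on control titanium and 46.7, 36.2 and 52.1 CPM on nanotopography (log2 fold change 0.98 ± 0.16, adjusted p = 0.00771, GC-adjusted 1.15 with adjusted p = 0.00224). Both held without any 1 library. The others with the highest values among these were Ift27 at 0.97 (GC-adjusted 0.73), Pop5 at 0.87 (GC-adjusted 0.71), Eno3 at 0.84 (GC-adjusted 0.63), Akt1s1 at 0.83 (GC-adjusted 0.57), Grwd1 at 0.83 (GC-adjusted 0.59), Zbtb8a at 0.79 (GC-adjusted 0.67) and Zfpl1 at 0.79 (GC-adjusted 0.49). Ift27 belongs to the transport machinery of cilia, Pop5 to ribonuclease P, Grwd1 to ribosome assembly, and Eno3 is the muscle enolase. Those with the lowest, next to Cpe, were Rbm12b2 at -1.29 (GC-adjusted -0.92), Zfp955b at -1.13 (GC-adjusted -0.75), Rnf170 at -1.13 (GC-adjusted -0.81), Ints6l at -1.07 (GC-adjusted -0.63), Pnpla8 at -1.07 (GC-adjusted -0.55), Zfp729a at -1.07 (GC-adjusted -0.59), 2610008E11Rik at -1.06 (GC-adjusted -0.68), Fam135a at -0.99 (GC-adjusted -0.61) and Sclt1 at -0.97 (GC-adjusted -0.72). Transcripts of these 9 have 39.1% (Pnpla8) to 43.2% (Sclt1) GC, and all 9 falls were smaller after adjustment. Eno3 and 2610008E11Rik held without any 1 library.

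The immediate early gene Klf4, a transcription factor, fell by 0.38 (GC-adjusted -0.55) and held without any 1 library. In its list 0 of 31 were called higher and 2 lower (6.45%, beside 5.62% of all tested genes). GC-adjusted, 0 were called higher and 3 lower (9.68%, beside 1.87%). Ifitm3 was the one interferon-stimulated gene of 21 called (4.76%, beside 10.1% of all tested genes), higher at 0.73 (GC-adjusted 0.57). Among 31 glycolysis and hypoxia genes 1 was called higher (3.23%) and 4 lower (12.9%), beside 4.48% and 5.62% of all tested genes, and none in both fits. The mitophagy receptors Bnip3 and Bnip3l went from -0.41 and -0.46 to -0.06 and -0.12. Of 20 metalloproteinases and inhibitors 0 were called higher and 1 lower (5%, beside 5.62% of all tested genes): Adamts5, at -0.60 (GC-adjusted -0.28). Of 14 cadherins and gap junction genes 0 were called in either direction, beside 10.1% of all tested genes. Of 19 nuclear long non-coding and snoRNA host RNAs 2 were called higher (10.5%) and 3 lower (15.8%), beside 4.48% and 5.62% of all tested genes. Of these, H19, Snhg18 (higher, 0.44 (GC-adjusted 0.47)) and Kcnq1ot1 (lower, -0.76 (GC-adjusted -0.31)) were called in both fits. H19 and Snhg18 held without any 1 library.

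The same surface comparison in co-cultured cells asked whether these changes depend on the culture. There 5602 genes were called between the surfaces (42%), and 2381 GC-adjusted (17.8%). The GC trend ran the other way, with medians of 0.67 under 40% GC and -0.92 from 60% GC. The difference of the surface effects (co-cultured minus isolated) was called for 6384 genes (47.9%), and for 2811 GC-adjusted (21.1%). Of the 487 genes called in both fits in isolated cells, 35 had a GC-adjusted surface effect in co-culture called in the same direction. For 121 it was called in the opposite direction. Over all 13340 tested genes it was called higher for 891 and lower for 1490. RANKL and the insert came with the osteoclasts, so their parts in this difference cannot be told apart.

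Histone genes were among those whose surface effect differed between the cultures. Hist1h1c measured 57.8, 86.9 and 97.2 CPM on control titanium and 14.1, 26.3 and 22.7 CPM on nanotopography in co-culture. Its GC-adjusted log2 fold change for the surface was 1.01 in isolated and -1.39 in co-cultured cells (difference -2.40, adjusted p = 5.13e-06). The list of replication-dependent histones had GC-adjusted medians of 0.92 and -0.44. The GC-adjusted difference was called for 17 of its 46 members, beside 21.1% of all tested genes. Cd44 was at 0.56 and -0.38 (difference -0.93, adjusted p = 2.70e-05) and Snrpc at 1.15 and -0.45 (difference -1.60, adjusted p = 0.000330). Suz12 was at -0.57 and 0.25 (difference 0.82, adjusted p = 0.00125) and Spp1 at -0.40 and 0.08 (difference 0.47, adjusted p = 0.00844). Some genes had the same sign in both cultures and no called difference, as counted or GC-adjusted: Igfbp5 at 0.43 and 0.68 (adjusted p = 0.121), Wif1 at -0.77 and -0.53 (adjusted p = 0.338) and Thbs1 at -0.35 and -0.34 (GC-adjusted effects, adjusted p = 0.948). For Phex the fits differ: GC-adjusted it was at -0.72 and -0.69 with no called difference (adjusted p = 0.950), and as counted at -1.19 and -0.11 with a called difference (1.08, adjusted p = 0.00956).

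**Figure D5:**
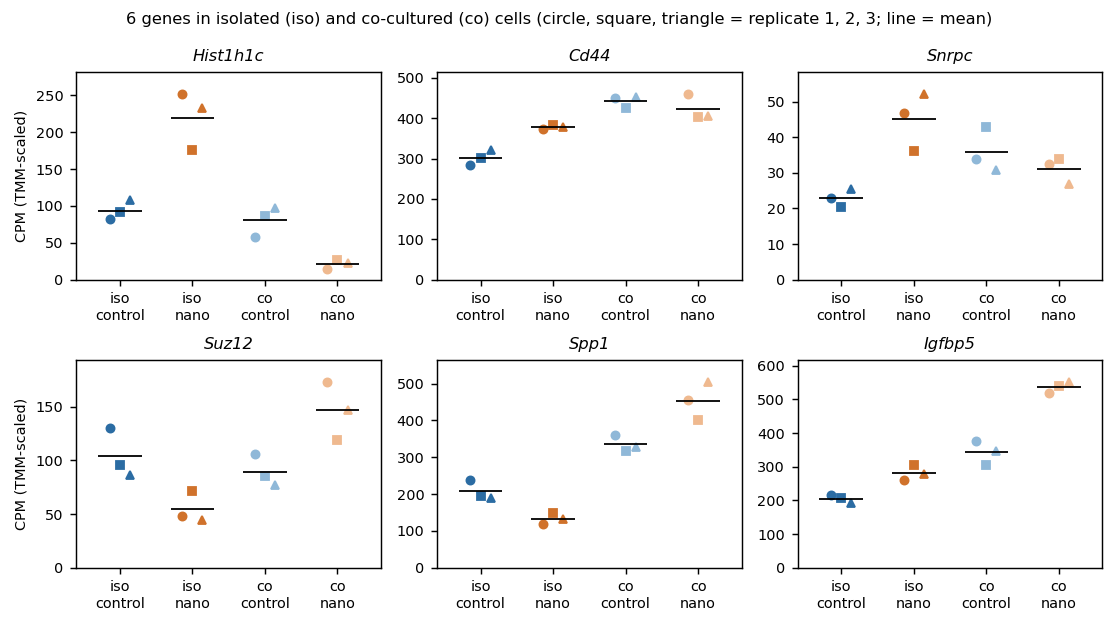
CPM of 6 genes (vertical axes, from 0) in isolated (iso, dark) and co-cultured (co, light) cells on control titanium (blue) and nanotopography (orange); symbols are replicates 1 to 3 and lines are means. Hist1h1c is highest in isolated cells on nanotopography and lowest in co-culture on nanotopography, while Igfbp5 is higher on nanotopography in both cultures.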

How the data were processed

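The authors deposited unnormalised read counts for each gene, with a separate file for each library. The submitters' processing notes name the build mm10 and the tools HTSeq, STAR 2.4, cutadapt, DESeq2 and FastQC 0.63; the role of each, the annotation release and the strand setting are not given in the sources used here, so overlapping and antisense transcripts cannot be set apart. The gene lists of 10 of the 12 files stop within a line. The 52654 genes complete in all 12 files were used, and 1621 further genes of the longest file were left out; at least 99.924% of each library's counts were kept. Coordinates are GENCODE M21 (GRCm38), which matched all 52654 identifiers without the version suffix.

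Counts of all 12 libraries were fitted in R 4.3.3 with edgeR 4.0.16: the default low-count filter (13340 genes), TMM scaling, 4 group means, robust quasi-likelihood tests and Benjamini-Hochberg adjustment over all tested genes, called below 0.05. The standard error is the absolute log2 fold change over the square root of F. Log CPM used a prior count of 2. Summed marker CPM and the Tnfsf11 limits used plain totals. GC adjustment removed each library's loess trend (span 0.3) with GC content and log2 length of the longest transcript, as offsets. Limits cover counting error only, since PCR copies carried no molecular identifiers and reads are thus not separate molecules. Both fits were also run on simulated counts with known changes, without and with a GC trend in the isolated nanotopography libraries. The outcome is not reported here.

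The genes named are the 12 highest and 12 lowest protein-coding log2 fold changes called in both fits, with a mean of at least 5 CPM and no overlap of the groups, leaving out replication histones, cytosolic ribosomal proteins, Gm-numbered predicted genes and mitochondrially encoded genes; 19 fixed genes of the osteoblast and of histone methylation; and, from each of the 35 lists, the 3 of lowest p at most. Further called members that complete a count, and the promoters and motifs shown, were chosen after their values were seen. A few genes that the rule names are not reported here. The comparison, lists and genes were chosen with earlier results of these data known. Alternatives tried were upper-quartile and RLE scaling, other filters, DESeq2 1.42.0, limma-voom (limma 3.58.1), only the groups compared, protein-coding genes only, a replicate block, GC content alone and leaving out each library. GC-adjusted fits with a library left out or with only the groups compared were added after the data were seen. Replicate numbers did not pair the surfaces (correlations of deviations of same-numbered libraries -0.28, 0.16 and 0.20). Pairs of libraries within a group differed by more than counting noise (chi-square per degree of freedom of 5.27 or more), so each counts as 1 sample.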

Additional observations from a re-analysis of the deposited data

Results flagged for a closer look

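For 53 of the 137 named genes the surface effect differed between the cultures, by edgeR's test of the difference itself, both as counted and GC-adjusted. In 45 of the 53 the GC-adjusted surface effects had opposite signs in isolated and co-cultured cells. The GC-adjusted difference (log2, co-cultured minus isolated) was below 0 for 37 genes, among them Hist1h1c -2.40, Snrpc -1.60, Hist1h2bm -1.54, Ifitm5 -1.45, Eno3 -1.31, Zbtb8a -1.14, Grwd1 -1.0, Mrps5 -0.99, Cd44 -0.93, Ndufa9 -0.88, Mrpl28 -0.85, Zfpl1 -0.84, Rpl29 -0.80, Snhg18 -0.79, Col6a2 -0.73, Actg2 -0.68, Fth1 -0.66, S100a11 -0.66, Mcm6 -0.64, Akt1s1 -0.63, Ppib -0.62, Smyd5 -0.61, Lgals1 -0.61, Calr -0.59, Cdca8 -0.59, Kif20a -0.53, Anxa6 -0.50, Grn -0.50, Mrps21 -0.50, Sfrp2 -0.46, Fdft1 -0.46, Tln1 -0.44, Atp5a1 -0.42, P4hb -0.36 and Smpd3 -0.29. It was above 0 for 16: Plod2 0.37, Pnpla8 0.46, Spp1 0.47, Col24a1 0.52, Mdm2 0.63, Zfp729a 0.63, Adam17 0.68, Kmt2e 0.73, Cpe 0.79, Suz12 0.82, Fam135a 0.88, Nr4a2 0.98, 2610008E11Rik 1.02, Zfp955b 1.04, Rbm12b2 1.16 and Sclt1 1.29. Most named genes were chosen for the size or p of their isolated surface effect, which the difference subtracts. That choice favours differences and effects of opposite sign, so the counts of 53 and 45 do not stand for all genes. Of all 13340 tested genes, 1854 were called for the difference both as counted and GC-adjusted. Groups of 3 libraries were not examined for outlying values.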

How the results depend on the processing

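In isolated cells 1347 genes were called between the surfaces, and 1346 to 1413 with RLE or upper-quartile scaling, a CPM filter, limma-voom, only protein-coding genes, no mitochondrial and ribosomal RNA-like genes, or a replicate block; only the groups compared gave 954 and DESeq2 1791. No low-count filter gave 2104, the removal of GC content and length 778, GC content alone 665, that removal with the replicate block 598 and with only the groups compared 528. The cause of these shifts was not tested. In co-cultured cells the same 3 corrections (GC content and length, GC content alone, and the replicate block with the former) gave 2381, 2479 and 2123 in place of 5602, and for the difference between cultures 2811, 2859 and 2563 in place of 6384. Leaving out a library gave 2 to 2912 genes in isolated cells, and 3271 (without coculture nano replicate 1) to 5829 in co-cultured cells. The replicate numbers share no stated batch, and the block changed the call of 2 of the 137 named genes.

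Of the 106 named genes called, 74 kept call and direction under the GC and length correction, and 2 to 106 when 1 library was left out as counted (34 to 76 GC-adjusted). Among named genes the sign turned as follows (log2). Under the corrections, in the order GC content and length, GC content alone, with the replicate block, and with only the groups compared, Sp7 was at -0.0473, -0.0665, -0.0481 and -0.0546, Smpd3 at -0.0562, -0.11, -0.0559 and -0.0582, Col1a1 at -0.19, -0.23, -0.19 and -0.19, Dcn at 0.22, 0.22, 0.21 and 0.21 and Ptgs2 at 0.0922, 0.0925, 0.0911 and 0.0903. Col1a1 was at -0.00063 with no filter and at -0.0023 with only the groups compared, and Kdm6b at 0.0026 without the mitochondrial and ribosomal RNA-like genes. With 1 library left out, with or without the correction, values ran from -0.44 to 0.0981 for Bnip3, -0.27 to 0.0926 for Col1a1, -0.43 to 0.34 for Dcn, -0.031 to 0.30 for Ezh2, -0.36 to 0.081 for Ibsp, -0.0713 to 0.40 for Ifitm5, -0.0244 to 0.21 for Kdm1a, -0.30 to 0.0398 for Kdm6b, -0.64 to 0.0966 for Lamp2, -0.22 to 0.0343 for Panx3, -0.0193 to 0.43 for Phospho1, -0.43 to 0.20 for Ptgs2, -0.63 to 0.092 for Sema3a, -0.11 to 0.15 for Smpd3, -0.0579 to 0.18 for Sp7 and -0.41 to 0.0347 for Tnfrsf11b. Genes with few counts, such as Phex and Chac1, carry wider errors at this depth.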

Other observations

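Among the 88 genes whose calls held without any 1 library are several outside the lists, picked here one by one after their values were seen, so that they stand for no group of genes. Higher on nanotopography was the cytosolic chaperone gene Hsp90ab1, which measured 2103, 2286 and 2286 CPM on control titanium and 3450, 3351 and 3582 CPM on nanotopography (edgeR log2 fold change 0.64 ± 0.10, GC-adjusted 0.55), with its co-chaperone Cdc37 at 0.52 (GC-adjusted 0.50), the chaperonin subunit Cct2 at 0.41 (GC-adjusted 0.47), the initiation factor subunit Eif3b at 0.70 (GC-adjusted 0.51) and the lysyl-tRNA synthetase Kars at 0.53 (GC-adjusted 0.58). Snf8, a subunit of the ESCRT-II complex that sorts membrane proteins, measured 51.3, 54.6 and 48.1 CPM on control titanium and 83.8, 87.1 and 83.5 CPM on nanotopography (log2 fold change 0.72 ± 0.12, GC-adjusted 0.87). Rab5a and Rab7, which encode small GTPases of early and late endosomes, were lower, at -0.69 (GC-adjusted -0.62) and -0.45 (GC-adjusted -0.46).

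Plec, which encodes the cytoskeletal linker plectin, was higher at 0.60 (GC-adjusted 0.39), the microtubule-associated protein Map1a at 0.66 (GC-adjusted 0.54) and drebrin, encoded by Dbn1, at 0.74 (GC-adjusted 0.53). Tmsb4x, which encodes the actin monomer-binding protein thymosin beta-4, was lower: it measured 114, 105 and 91.2 CPM on control titanium and 72.1, 69.5 and 72.3 CPM on nanotopography (log2 fold change -0.54 ± 0.11, GC-adjusted -0.52). Lower as well were the ligand gene Bmp8a at -1.47 (GC-adjusted -1.70), whose mean lies under the 5 CPM required for the ranking by size of change, the carbonic anhydrase Car3 at -0.94 (GC-adjusted -0.85), the serotonin transporter Slc6a4 at -0.79 (GC-adjusted -0.91), the surface protein Cd200 at -0.75 (GC-adjusted -0.56) and Sgms2, a sphingomyelin synthase needed for bone mineral, at -0.62 (GC-adjusted -0.40).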
